A study of Rattus norvegicus with 3 samples.

Results

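Chromatin immunoprecipitation followed by sequencing (ChIP-seq) mapped 2 histone marks in round spermatids of untreated Sprague-Dawley rats, and the stretch of chromosome 1 from 50 to 80 Mb (build rn6) is described here. Members were all listed peaks of either mark that start there, 209 of 7684 H3K4me3 peaks and 2243 of 49591 H3K9me3 peaks, or 2452 of 57275 in all. The groups were a precipitate with an antibody against H3K4me3, one with an antibody against H3K9me3 and a library without antibody, with 1 library each. All 3 came from testis and shared cell type and strain, and the age and number of the animals are not given in the labels. The labelled cell type could not be set against marker genes, because no gene positions of this build were used.

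The region and its stretches were chosen by the covered length of the marks in windows of 1 Mb. Densities, peak widths and the scores related to widths are therefore descriptions and were not tested. The region is read in 3 stretches with different content. These are an H3K4me3-dense stretch from 54 to 56 Mb and H3K9me3 domains from 59 to 64 Mb and from 73 to 78 Mb. Peaks are taken as enrichment over the library without antibody, whose name is part of the naming of both lists. The labels do not state this, and if the name instead means a call with the libraries swapped, all values below would describe excess in the control. Each mark has 1 library and no read counts were at hand, so depth and replicate error are unknown and no p-value is given. Intervals are at the 95% level, exact (Clopper-Pearson) for shares and Poisson for peak numbers, and cover counting error only.

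Trimethylation of lysine 4 of histone H3 (H3K4me3) is laid down at the start sites of active genes and is read by the general transcription machinery. Trimethylation of lysine 9 (H3K9me3) is bound by HP1 proteins and marks heterochromatin. In mammals it typically coats satellite and transposon repeats and clusters of zinc finger genes, and in male germ cells it also takes part in the silencing of the sex chromosomes. Round spermatids are haploid cells after meiosis that still transcribe and have not yet begun to replace most histones by protamines. The marks are usually found on different sequences, so a peak of one that lies on a peak of the other is the pattern followed through this region.

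The region took up 10.6% of the span of chromosome 1 and held 45.6% of the H3K9me3 covered length and 21.4% of the H3K4me3 covered length on the chromosome. H3K9me3 peaks covered 12.2% of it, against 1.73% of the rest of the chromosome. H3K4me3 peaks covered 0.937%, against 0.408%. Right at the borders the lists were sparse, although the last window, 79 to 80 Mb, held 55 H3K9me3 peaks over 71.7 kb. Beyond 80 Mb, H3K9me3 peaks covered 238 kb from 83 to 84 Mb and 310 kb from 86 to 87 Mb. The last H3K4me3 peak before 50 Mb started at 49257244 with a score of 30.7 and the first inside at 51621101 with a score of 46.96. The last inside started at 78922175 (score 115) and the first beyond 80 Mb at 80055800 (score 60.0). The score is the authors' own value per peak, has 30 as its lowest value in both lists and serves here only to rank peaks within a list. For H3K9me3, the last peak before 50 Mb had a score of 34.2 and the first inside 135, and the last inside had 56.2 and the first beyond 80 Mb 60.0.

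**Figure D1:**
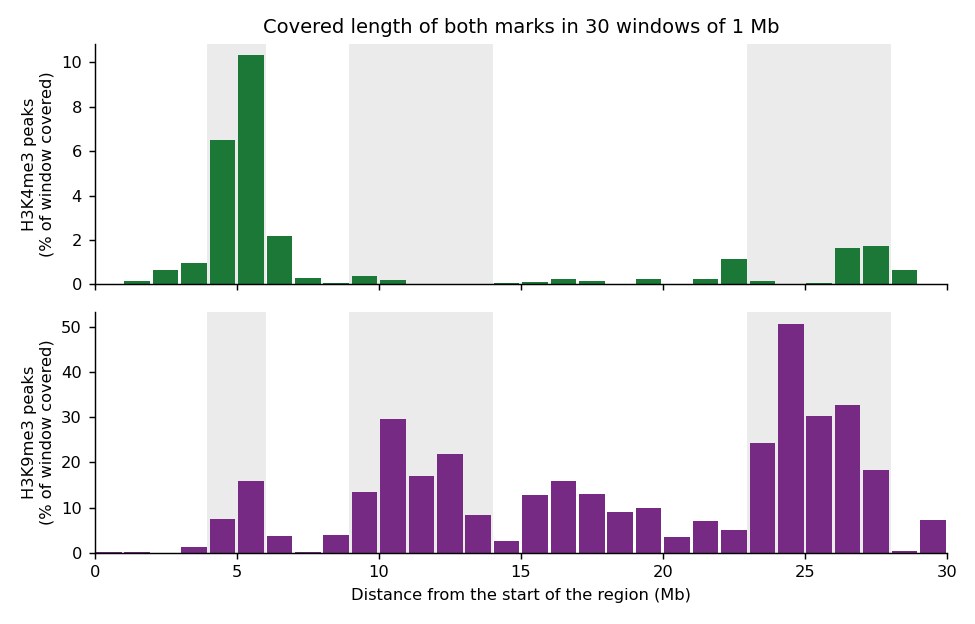
Percent of each 1-Mb window covered by peaks of H3K4me3 (top) and H3K9me3 (bottom), with the window placed by its distance from the start of the region and the 3 stretches shaded. H3K4me3 peaks near 10.3% in the second window of the dense stretch, and H3K9me3 reaches its highest values within the domains. Between the domains it is lower as a whole. Yet 66 to 67 Mb, with 160 kb covered, exceeds 59 to 60 Mb (135 kb) and 63 to 64 Mb (84.2 kb) of the first domain.

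Along the 30 windows of 1 Mb, the 5 with most H3K4me3 were 55 to 56 Mb with 103 kb, 54 to 55 Mb with 65.1 kb, 56 to 57 Mb with 21.6 kb, 77 to 78 Mb with 17.4 kb and 76 to 77 Mb with 16.6 kb. The window from 55 to 56 Mb ranked first on chromosome 1 and the one from 54 to 55 Mb next, and 8 windows of the region held no H3K4me3 peak at all. The window just before the dense stretch, 53 to 54 Mb, held 8 H3K4me3 peaks over 9.62 kb. The 5 windows with most H3K9me3 were 74 to 75 Mb with 507 kb, 76 to 77 Mb with 327 kb, 75 to 76 Mb with 304 kb, 60 to 61 Mb with 297 kb and 73 to 74 Mb with 244 kb. They ranked 1, 2, 4, 5 and 6 on chromosome 1, and 13 of the chromosome's 20 richest H3K9me3 windows lay in the region. The window from 52 to 53 Mb, with 6 H3K4me3 peaks, was the one window of the region without an H3K9me3 peak. The highest window thus differed between the marks, yet some windows were high in both. These included 76 to 78 Mb and also 55 to 56 Mb, which ranked 13 on the chromosome for H3K9me3, with 159 kb.

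The H3K4me3-dense stretch held 111 H3K4me3 peaks in 2 Mb, or 55.5 per Mb (45.7 to 66.8), against 3.38 per Mb (3.16 to 3.62) on the rest of the chromosome. Its H3K4me3 peaks covered 8.41% of the sequence, 20.6 times the rest of the chromosome, and its 143 H3K9me3 peaks covered 11.6%, or 6.73 times the rest. The peaks came in tight runs. With peaks under 10 kb apart joined, 3 runs of at least 10 H3K4me3 peaks began in the stretch and held 62 peaks, and no other run in the region reached 10. The largest, chr1:55635425-55772949, packed 39 H3K4me3 peaks into 138 kb and covered 51.0% of it. The next held 13 peaks at chr1:55984098-56012328 and 10 peaks at chr1:55196215-55237083. Of the 40 windows of 50 kb, 22 held both marks, 1 held H3K4me3 alone, 7 held H3K9me3 alone and 10 held neither. An exception to the shared pattern lay between the biggest H3K4me3 runs, where 15 H3K9me3 peaks at chr1:55903444-55973759 covered 55.1% of the sequence with scores up to 1854, and 1 of them lay on H3K4me3.

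**Figure D2:**
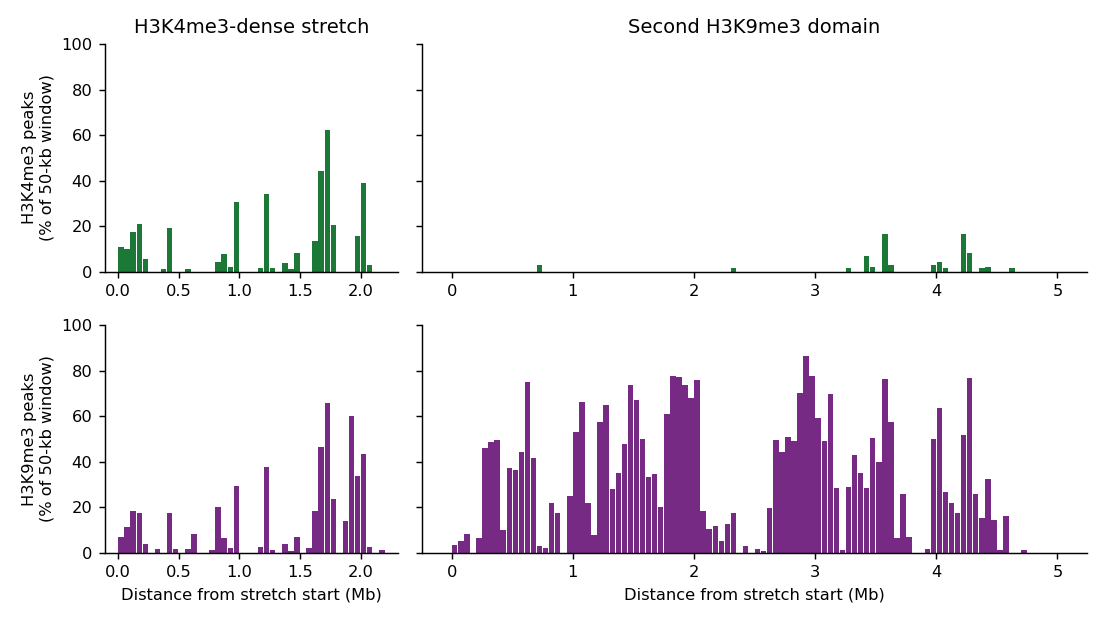
Percent of each 50-kb window covered by H3K4me3 (top) and H3K9me3 (bottom) in the dense stretch, drawn from 54 to 56.2 Mb (left), and in the second H3K9me3 domain (right), by distance from the start of each. In the dense stretch both marks are present in 22 of 40 windows, up to 62.1% for H3K4me3 and 65.7% for H3K9me3, with H3K9me3 alone in 7, and in the domain H3K9me3 reaches 86.7% while H3K4me3 appears mainly in its distal part.

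The dense stretch did not end at 56 Mb. In the first 100 kb beyond it a further 11 H3K4me3 peaks covered 20.9% of the sequence, and all 11 lay on H3K9me3. Beyond that point, up to 57 Mb, a single H3K4me3 peak with a score of 41.1 was listed, away from H3K9me3. The run of 13 peaks crosses the 56 Mb line, so the line cuts through a cluster.

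The highest H3K4me3 scores of the dense stretch were 3100. Exactly this value was listed for 20 H3K4me3 and 100 H3K9me3 peaks, so peaks at or above it are not ranked by score. The peak at chr1:55728782-55738016 was 9235 bp wide, and 97.1% of it lay on H3K9me3, with a best partner score of 3100. The peaks at chr1:55682002-55690558 (8557 bp) and chr1:55706657-55712403 (5747 bp) lay entirely on H3K9me3, with the same best partner score. The widest H3K4me3 peak, chr1:54951766-54961147 with 9382 bp and a score of 1614, shared 98.7% of its length with H3K9me3 peaks that scored at most 719. Just past the line, chr1:56023528-56032608 (9081 bp, score 3100) and an H3K9me3 peak at chr1:56023511-56032610 had nearly the same borders. Of the 22 H3K4me3 peaks at 3100 or more on all chromosomes, 5 lay in the dense stretch and 2 just past it, and neither H3K9me3 domain held one.

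The highest H3K9me3 scores of the dense stretch lay on H3K4me3. The largest listed value, 3175, belonged to chr1:55648780-55652143, of whose 3364 bp 55.2% was shared with H3K4me3. It is not ranked above the peaks at 3100. The widest of those at 3100 were chr1:55681713-55691898, with 10186 bp also the widest of the stretch, and chr1:55729047-55738949. These shared 92.7% and 90.6% of their length with H3K4me3, with a best partner score of 3100. Of the 8 H3K9me3 peaks over 5 kb wide in the stretch, 6 lay on H3K4me3.

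In the dense stretch the marks coincided in both directions. Of its 111 H3K4me3 peaks, 99 lay on an H3K9me3 peak (89.2%, 81.9 to 94.3%), where the background over chromosomes 1 to 20, X and Y was 31.9%. Of its 143 H3K9me3 peaks, 100 lay on an H3K4me3 peak (69.9%, 61.7 to 77.3%), where the background was 4.44%. In sequence, 88.1% of the H3K4me3 length and 63.6% of the H3K9me3 length was shared. The 12 H3K4me3 peaks off H3K9me3 had a median score of 50.7, and none scored above 110. Those on it had a median of 149, and the whole H3K4me3 list 49.5. On the rest of the chromosome the medians were 45.4 off and 89.3 on H3K9me3. The 12 peaks were also narrower than those on H3K9me3, with a median of 587 against 1045 bp. The 43 H3K9me3 peaks off H3K4me3 had a median score of 76.3, against 206 for those on it, but included 1 with a score of 1854. On the rest of the chromosome these medians were 51.3 off and 481 on H3K4me3, so the score gaps are not particular to the stretch. Both lists are read as sharing 1 control library, and its part in the coincidence was not tested.

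The first H3K9me3 domain, from 59 to 64 Mb, was almost free of H3K4me3. Its 557 H3K9me3 peaks covered 18.1% of the sequence, 10.5 times the rest of the chromosome, and 3 of them (0.539%, 0.111 to 1.57%) lay on H3K4me3. H3K4me3 listed 5 peaks in these 5 Mb, or 1 per Mb (0.325 to 2.33). The stronger ones formed a pair off H3K9me3, chr1:59704357-59706744 with a score of 213 and chr1:59707304-59708624 with a score of 53.9. The other 3 lay entirely inside H3K9me3 peaks and were near the lowest listed score, at 36.7, 33.3 and 31.7. No H3K4me3 peak was listed from 60452162 to 64354493, a gap of 3902 kb and the longest of the region. The depth is unknown, so a lack of peaks there does not show that the mark was absent.

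Of the 557 H3K9me3 peaks in this domain, 393 lay in 19 runs of at least 10 peaks, and scores were moderate. The domain was not continuous. Of its 100 windows of 50 kb, 70 held H3K9me3 alone, 3 held both marks and 27 held neither. The median peak was 1141 bp wide with a score of 76.9, and 17 peaks exceeded 5 kb. The widest, chr1:62304252-62317876, was 13625 bp wide and also had the highest score, 1423, with no H3K4me3 on it. The next scores were 1151 at chr1:60246781-60255850 and 1068 at chr1:63682377-63690779. The first of these carried an H3K4me3 peak of score 33.3 over 6.50% of its length, and the other carried none. The longest run spanned 225 kb with 67 peaks from 59863547.

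The second H3K9me3 domain, from 73 to 78 Mb, was the denser, with 818 H3K9me3 peaks over 31.3% of the sequence, 18.1 times the rest of the chromosome. Its peaks were the widest of the stretches, with a median of 1294 bp and quartiles of 794 and 2218 bp, and 54 exceeded 5 kb. Of its 100 windows of 50 kb, 73 held H3K9me3 alone, 14 both marks, 1 H3K4me3 alone and 12 neither. The longest runs held 113 peaks over 412 kb (chr1:75764077-76175914, 65.7% covered) and 112 peaks over 336 kb (chr1:74730422-75066920, 70.1% covered). Neither carried an H3K4me3 peak. The widest H3K9me3 peak, chr1:73603408-73627915 with 24508 bp and a score of 3100, carried none either. Peaks with the same score at chr1:77284768-77306109 (21342 bp) and chr1:77218100-77228215 (10116 bp) did carry H3K4me3, over 6.49% and 52.2% of their length.

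Within that domain the H3K4me3 peaks were almost all distal. From 73 to 76 Mb, 532 H3K9me3 peaks covered 35.1% of the sequence, and H3K4me3 listed 2 peaks, neither on H3K9me3. From 76 to 78 Mb, 286 H3K9me3 peaks covered 25.5%, and H3K4me3 listed 35 peaks, of which 34 lay on H3K9me3 (97.1%, 85.1 to 99.9%). These fell on 25 H3K9me3 peaks, and 1 of them carried 5. The split at 76 Mb was chosen after the values were seen. The 35 peaks ran from 608 to 1849 bp and had scores from 30.1 to 108. Their median width was 860 bp, against 912 bp for H3K4me3 on the rest of the chromosome. Their median score was 47.0, against 49.5 for the whole H3K4me3 list. The highest scores were 108 at chr1:76591298-76592644, 99.6 at chr1:77201355-77203062 and 90.8 at chr1:76986587-76988119. The widest was chr1:77222325-77224173, with a score of 84.0. Each of these 4 lay entirely inside an H3K9me3 peak.

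The part of high-scoring H3K9me3 peaks that carried H3K4me3 differed along the region. At scores of 1000 or more, 20 of 21 did so in the dense stretch (95.2%, 76.2 to 99.9%), and 89 of 94 on the rest of the chromosome (94.7%, 88.0 to 98.3%). From 76 to 78 Mb it was 13 of 17 (76.5%, 50.1 to 93.2%). From 73 to 76 Mb it was 0 of 8 (exact upper bound 36.9%), and in the first domain 1 of 4 (25%, 0.631 to 80.6%). Among H3K9me3 peaks over 5 kb wide, 11 of 18 carried H3K4me3 from 76 to 78 Mb and 0 of 36 from 73 to 76 Mb (exact upper bound 9.74%). As 76 Mb was set where the H3K4me3 peaks begin, the shares on its sides had to differ and are a description.

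**Figure D3:**
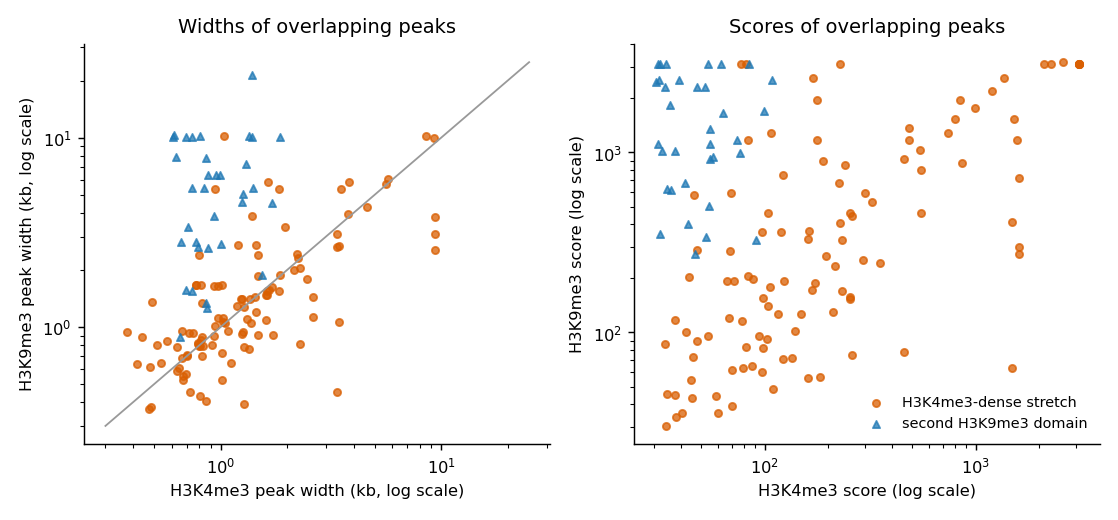
Width (left) and score (right) of overlapping H3K4me3 and H3K9me3 peaks, both on log scales, with 1 point per pair (circles, dense stretch, 110 pairs; triangles, second domain, 34 pairs) and a line of equal width. Circles scatter around the line, and all triangles lie above it, at low H3K4me3 scores and at H3K9me3 scores of at least 274.

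Overlap took different forms in the dense stretch and in the second domain. In the dense stretch the 110 overlapping pairs were matched in size, with median widths of 1191 bp for H3K4me3 and 1115 bp for H3K9me3, and the H3K4me3 peak was the wider in 53. The midpoints of a pair were a median of 110 bp apart. In the second domain, the 34 pairs joined an H3K4me3 peak with a median width of 864 bp to an H3K9me3 peak of 5419 bp. The H3K4me3 peak was wider in 0 of 34, lay wholly inside in 31, and the midpoints were a median of 1034 bp apart. Over all chromosomes the 2563 pairs had medians of 907 and 1471 bp and an offset of 209 bp. Between the scores of a pair, Spearman's rho was 0.66 over the 110 pairs of the dense stretch and -0.09 over the 34 pairs of the second domain. The H3K4me3 scores of the pairs ran from 33.6 to 3100 in the dense stretch and from 30.4 to 108 in the second domain. The rho values thus rest on unlike ranges. They are descriptions over pairs that share libraries and sequence, and a peak in more than 1 pair counts each time.

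**Figure D4:**
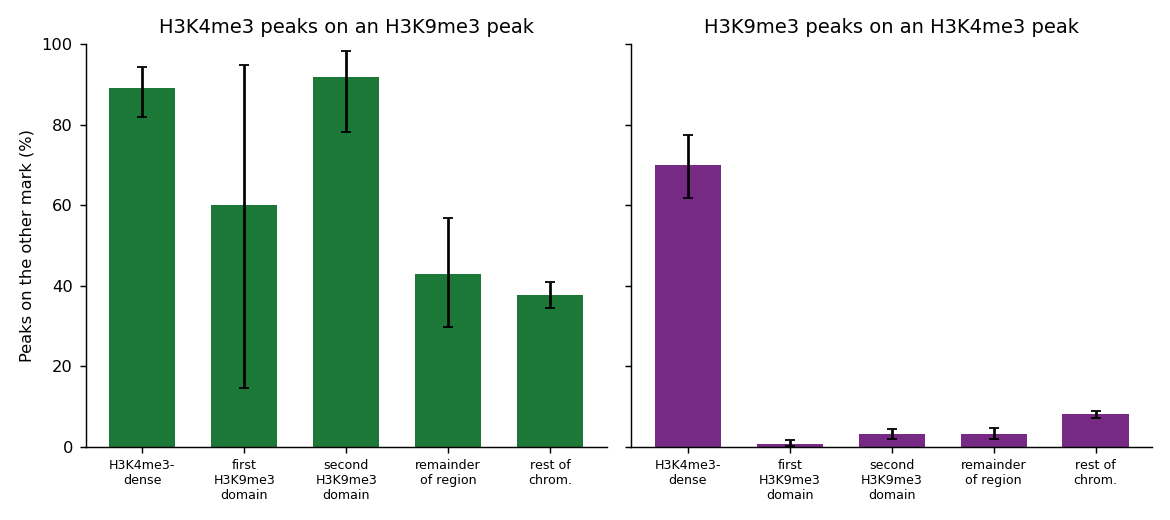
Percent of H3K4me3 peaks that overlap an H3K9me3 peak (left) and of H3K9me3 peaks that overlap an H3K4me3 peak (right), by stretch, with exact 95% intervals for counting error. The dense stretch and the second domain are alike on the left, at 89.2% and 91.9%, and differ on the right, at 69.9% and 3.06%.

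The share of H3K4me3 on H3K9me3 was similar in the dense stretch and the second domain, and the reverse share was far lower in the second domain, which has many more H3K9me3 peaks. Over the whole second domain 34 of 37 H3K4me3 peaks lay on H3K9me3 (91.9%, 78.1 to 98.3%), and 25 of 818 H3K9me3 peaks lay on H3K4me3 (3.06%, 1.99 to 4.48%). That reverse share was near the background of 4.44%. The median H3K9me3 peak with H3K4me3 on it was 4536 bp wide and scored 1021, against 1265 bp and 101 for the others. On the rest of the chromosome 321 of 854 H3K4me3 peaks lay on H3K9me3 (37.6%, 34.3 to 40.9%), and 296 of 3704 H3K9me3 peaks lay on H3K4me3 (7.99%, 7.14 to 8.91%).

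Other crowded windows of chromosome 1 showed a like share in one direction. In 9 windows outside the region with H3K9me3 over at least 10%, 140 of 146 H3K4me3 peaks lay on H3K9me3 (95.9%, 91.3 to 98.5%). In 8 windows outside it with at least 20 H3K4me3 peaks, the count was 220 of 244 (90.2%, 85.7 to 93.6%). Singly these 8 were uneven, with 14 of 29 at 195 to 196 Mb, 17 of 24 at 99 to 100 Mb and nearly all peaks in each of the others. The windows at 39 to 40, 147 to 148, 148 to 149 and 180 to 181 Mb were in both sets, so the pooled shares are not separate results. They held 35, 20, 23 and 55 H3K4me3 peaks, most of the 146. The windows of the first set only held few H3K4me3 peaks, mainly 12 at 86 to 87 Mb with 8 on H3K9me3. With these limits, a high share of H3K4me3 on H3K9me3 is not particular to the region. In the reverse direction the sets of 9 and 8 windows gave 125 of 1024 (12.2%, 10.3 to 14.4%) and 200 of 619 (32.3%, 28.6 to 36.2%). Singly, the 8 windows ran from 16.8% to 56.8%, against 71.2% (57.9 to 82.2%) at 54 to 55 Mb and 69.0% (58.02 to 78.7%) at 55 to 56 Mb. The highest of the 8, from 180 to 181 Mb, had all 55 H3K4me3 peaks on H3K9me3, 50 of 88 in reverse (56.8%, 45.8 to 67.3%) and a median H3K4me3 score of 273. Its interval overlaps those of the windows of the dense stretch. The H3K4me3-rich part of chromosome 9 from 8 to 13 Mb gave 116 of 361 in reverse (32.1%, 27.3 to 37.2%). Chromosome 7 from 0 to 11 Mb, with 88 of 101 H3K4me3 peaks on H3K9me3, gave 67 of 1373 (4.88%, 3.80 to 6.16%), and the H3K9me3 domain of chromosome 13 from 1 to 35 Mb gave 42 of 7330 (0.573%, 0.413 to 0.774%). The dense stretch had 1.29 H3K9me3 peaks per H3K4me3 peak. The 8 windows ran from 1.07 to 5.35, and the parts of chromosomes 9, 7 and 13 stood at 2.19, 13.6 and 122. The part of this ratio in the reverse share was not tested.

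**Figure D5:**
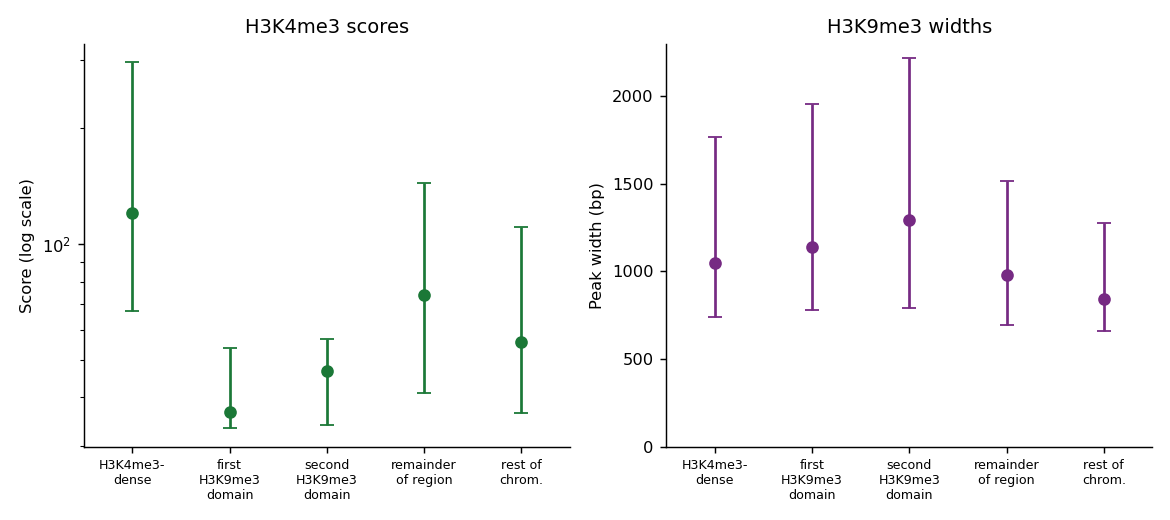
Median and quartiles of H3K4me3 scores (left, log scale) and of H3K9me3 peak widths (right) by stretch and on the rest of the chromosome, with bars for the quartiles of single peaks. The dense stretch has the highest median H3K4me3 score, 120, and the second domain the highest median H3K9me3 width, 1294 bp. Stretches were chosen by covered length, which sums peak widths, so both are descriptions.

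Scores of the same mark also differed along the region. The median H3K4me3 score was 120 in the dense stretch, with quartiles of 67.1 and 297, and 47.0 in the second domain, with quartiles of 33.9 and 56.8. On the rest of the chromosome it was 55.6, with quartiles of 36.5 and 111. The median H3K9me3 score was 146 in the dense stretch, 105 in the second domain, 76.9 in the first domain and 54.5 on the rest of the chromosome. Score and width were related within each list (Spearman's rho 0.64 over the 209 H3K4me3 peaks and 0.85 over the 2243 H3K9me3 peaks of the region, a description over peaks). The median H3K9me3 width was 1050 bp in the dense stretch and 844 bp on the rest of the chromosome. As the stretches were chosen by covered length, which sums peak widths, their widths and scores are not independent of that choice.

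The remainder of the region, 18 Mb outside the 3 stretches, held 56 H3K4me3 and 725 H3K9me3 peaks. H3K4me3 covered 0.394% of it, close to the 0.408% of the rest of the chromosome, and H3K9me3 5.30%. Here 24 of the 56 H3K4me3 peaks lay on H3K9me3 (42.9%, 29.7 to 56.8%), and 11 of these 24 belonged to the end of the dense cluster in the first 100 kb past 56 Mb. A further 7 lay from 53 to 54 Mb, where 7 of 8 H3K4me3 peaks coincided with H3K9me3. The highest score there was 518 at chr1:53662705-53665608. This peak lay mainly on an H3K9me3 peak of score 881, and only its far end touched another of score 1221. Between the domains, from 64 to 72 Mb, 544 H3K9me3 peaks covered 9.18% of the sequence and 11 H3K4me3 peaks 0.129%. The highest H3K9me3 score there was 2576, at chr1:67439897-67446086, which carried an H3K4me3 peak of score 63.3.

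H3K4me3 peaks without H3K9me3 numbered 49 in the region, and none scored above 213. Of these, 12 lay in the dense stretch, 9 from 72 to 73 Mb, 6 from 52 to 53 Mb and 3 from 78 to 79 Mb. The 9 peaks at 72 to 73 Mb were all the H3K4me3 peaks of that window, next to the second domain, although 37 H3K9me3 peaks covered 5.00% of it. Their scores ran from 32.3 to 179 with a median width of 1221 bp, against 860 bp for the 35 peaks from 76 to 78 Mb. The 6 peaks at 52 to 53 Mb had scores from 30.7 to 159.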

How the data were processed

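Peak lists of H3K4me3 and H3K9me3 from 1 ChIP-seq library each were used. The library without antibody had no list of its own among the data used. The submitters' processing notes name the build rn6 and the tools Bowtie 1.2, FastQC and bcl2fastq, with no roles. Peak names, per the deposited files, are those of the caller MACS, whose settings no source used here gives. For each peak, the score is the value the authors deposited, at least 30 in both lists. The nature of the score is not stated.

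A peak belongs to a 1-Mb window or stretch by its deposited start, and starts are printed counted from 1. For the 50-kb windows, peaks were cut at the window borders, and a window held a mark where any of it was covered. The span of chromosome 1, 282.554 Mb, is the largest peak end in either list. Outside the 50-kb windows, covered length is the sum of whole peak widths. Overlap means at least 1 bp shared. The rest of chromosome 1 is all of it outside 50 to 80 Mb. Peaks on sequences other than chromosomes 1 to 20, X and Y were left out of overlaps. The overlap calculation was tested on simulated data and recovered 0, 100 and 300 planted overlaps among 1000 peaks. Named peaks are, per mark and stretch, the widest and the 3 that score highest (of equal scores, the wider). Named windows are the 5 with most covered length per mark. Other regions were named after their values were seen. Members and stretches were chosen with earlier results of these data known. The gene tables at hand follow another assembly, so no gene names or sequences were used. Alternatives were a median score minimum, peak numbers, placement by midpoint, chromosomes 2 to 20 as background and other overlap rules. Intervals were computed with scipy 1.17.1, tables with pandas 2.3.3 and numpy 2.4.6 and plots with matplotlib 3.10.9, in Python 3.11.15.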

Additional observations from a re-analysis of the deposited data

How the results depend on the processing

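Of 47 values recomputed under other settings for 11 results, 32 stayed within the counting interval of the main value, and 15 moved beyond it. For ratios of covered percent, that interval was the Poisson interval of the peak number, scaled to the ratio. It leaves out the spread of peak widths and the error of the background. None of the 6 ratios of covered percent crossed 1. With peaks below the median score of either list left out, the ratios of covered percent to the rest of chromosome 1 rose to 26.2 for H3K4me3 and 9.15 for H3K9me3 from 54 to 56 Mb, and for H3K9me3 to 12.97 from 59 to 64 Mb and 24.6 from 73 to 78 Mb. With peaks per Mb they were 16.4, 4.88, 7.60 and 11.2, and against chromosomes 2 to 20 they were 26.99, 4.87, 7.57 and 13.1, in the same order. With the same peaks left out, the share of H3K4me3 peaks on H3K9me3 was 0% from 59 to 64 Mb (2 peaks), which puts it below the rest of the chromosome rather than above, 58.8% in the remainder of the region and 47.3% on the rest of the chromosome. Placing peaks by midpoint, an overlap of 0.5 of the smaller peak and a distance of 1 kb moved no share beyond its interval. With the dense stretch ended 100 kb later, a setting chosen after seeing the data, the share was 90.2%. No paired analysis was possible because each mark has 1 library. Depth and the share of signal in the library without antibody could not be assessed from peak lists.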
